A study of Caenorhabditis elegans with 2 samples.

Results

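The 9 genes described here encode repressors of the synthetic multivulva (synMuv) pathways that are not subunits of the DREAM complex: lin-13, lin-36, lin-15B, lin-38, hpl-2, lin-61, lin-65, mep-1 and let-418. They were listed by name, out of 19973 protein-coding genes of the annotation, by a rule that sets no threshold on their values, though results of these data were already known. The data asked where the chromatin protein HMG-11 lay at these genes. HMG-11 belongs to the HMGA type of protein, whose AT-hooks sit in the minor groove at stretches of A and T. All samples were whole Caenorhabditis elegans hermaphrodites of strain TH184 at the third larval stage (L3), taken 52 h after synchronisation by L1 starvation. They carried the unc-119(ed3) III mutation and the integrated transgene ddIs101, which makes HMG-11 fused at its C terminus to GFP and FLAG, and the chromatin was sonicated and precipitated with an antibody to GFP. There was 1 group with 2 biological replicates and no comparison between conditions. The antibody was thus directed at the tagged transgene product, with driving sequences not given in the sources used here, and cell types of the larva cannot be told apart. No control library was analysed here, so the part of the signal that is background was not assessed.

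In the worm, synMuv genes act redundantly. Animals that lose 1 class develop a normal vulva, and animals that lose genes of classes A and B together form extra vulval tissue, because the growth factor gene lin-3 is no longer held down. Class B proteins also keep germline genes silent in somatic cells. Several of them work through histone H3 lysine 9 (H3K9) methylation, heterochromatin or nucleosome remodelling. LIN-13 is a zinc-finger protein that works with HPL-2, a homologue of heterochromatin protein HP1, and with LIN-61, which has MBT repeats that bind methylated H3K9. LIN-36 and LIN-15B carry THAP-type DNA-binding domains. LIN-65 is a partner of the H3K9 methyltransferase MET-2. MEP-1 is a zinc-finger partner of LET-418, a remodelling ATPase of the Mi-2 type. LIN-38 is usually counted in class A, so of the 9 genes it is the one that does not carry a class B assignment.

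The values are lists of called regions on genome build ce11 (WBcel235). The list of each replicate and the list called on both replicates together (the pooled list) each held 30000 regions, peaks and background alike, with a signal value made by the authors (scale not given in the sources used here). Regions were ranked by this signal, with 1 the strongest, and signals were not compared between lists. The 4037 peaks that passed the irreproducible discovery rate (IDR) step are called IDR peaks below. They were the 4037 strongest pooled regions, the weakest with a signal of 67.9, so the term denotes a rank in the pooled list. Of these peaks, 4025 overlapped a region of both replicates. Read numbers are unknown from these lists, no interval is given for depth, and a gene without a listed region may still hold signal below the weakest listed value (18.9 in the pooled list).

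HMG-11 peaks were found near 6 of the 9 genes, lin-13, lin-36, lin-15B, lin-38, hpl-2 and mep-1. The window searched ran from 5 kb upstream of the gene's start to the gene's end. In the same window 28.0% of all protein-coding genes (5586 of 19973) had an IDR peak. For 5 of the 9 genes, all of these but hpl-2, a peak summit lay in the promoter window, from 1000 bp upstream to 200 bp downstream of an annotated transcript start, against 15.0% of protein-coding genes (2987). Any pooled region, peak or not, lay in the window of 8 of the 9 genes and of 52.3% of protein-coding genes. Among genes with such a region, 6 of the 8 had a peak, and 53.5% of the 10448 protein-coding genes. The 9 genes are longer than most, with a median of 5903 bp against 2027 bp for protein-coding genes, and of the 7283 protein-coding genes between the shortest (2456 bp) and the longest (11072 bp) of them, 35.7% had a peak. No test was made of these shares, since earlier results were known when the genes were proposed.

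The windows of the 9 genes held 34 pooled regions, and 8 of these were IDR peaks. All 8 peaks lay upstream of their gene. Of all 34 regions, 22 lay upstream, 9 in introns and 3 in exons. The window takes in 5 kb upstream of each gene, which can reach neighbouring genes. Matching position counts over all protein-coding genes are not given here. The strongest region of each gene had a median rank of 1008 over the 8 genes with one, and of 3578 over the 10448 protein-coding genes with one. Neither this comparison nor the percentages below were matched for gene length. The windows of the 9 genes held a median of 3 pooled regions, against 1 over all protein-coding genes. The order from strongest to weakest was hpl-2, lin-36, lin-13, mep-1, lin-38, lin-15B, lin-65 and let-418. A stronger region stood in the window of 0.440% of those protein-coding genes for hpl-2, 9.63% for lin-36, 12.2% for lin-13, 15.2% for mep-1, 19.6% for lin-38, 34.7% for lin-15B, 60.2% for lin-65 and 71.6% for let-418. The first 6 genes thus stood in the stronger part of the distribution and the last 2 in the weaker part.

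**Figure D1:**
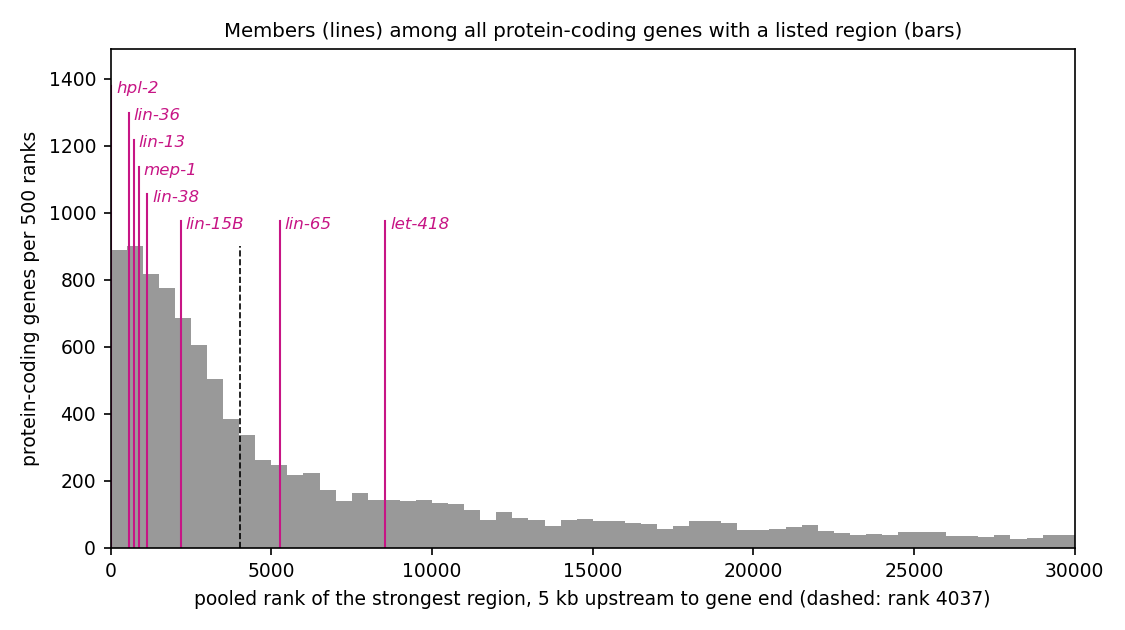
Pooled rank of the strongest region in the window of each gene (horizontal axis, 1 is strongest), with grey bars counting protein-coding genes per 500 ranks and coloured lines marking 8 of the 9 genes. The lines of 6 genes stand left of the dashed line at rank 4037, which bounds the IDR peaks, and those of lin-65 and let-418 stand right of it, and lin-61 has no listed region.

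The sequences at the summits are shown because the 8 peaks had more G and C in these bases than the median IDR peak (7 of the 8 under other settings, given below), and because 7 of the 8 shared a short repeat of G and A. Each line gives the gene, the place of the summit, the position on ce11 and the sequence from 5′ to 3′ on the strand of the gene, read from the RefSeq sequence of WBcel235. Lines hold the summit base with 50 bp on either side, except that of hpl-2, which has 95 bases and stops before an exon of the next gene. Capitals mark GAGAG or its complement CTCTC, overlapping matches joined. The last line is the strongest region of let-418, which was not a peak. Those of lin-36 and of the nearer mep-1 peak overlap exons of noncoding RNA genes (F44B9.11 for lin-36, M04B2.11 and M04B2.13 for mep-1).
lin-13, 787 bp upstream of the start, chrIII:7710228-7710328, minus strand: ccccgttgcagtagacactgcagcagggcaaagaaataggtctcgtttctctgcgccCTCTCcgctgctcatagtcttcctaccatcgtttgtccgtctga
lin-13, 1623 bp upstream of the start, chrIII:7711064-7711164, minus strand: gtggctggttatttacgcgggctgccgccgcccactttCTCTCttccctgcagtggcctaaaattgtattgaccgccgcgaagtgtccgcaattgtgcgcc
lin-36, 252 bp upstream of the start, chrIII:8021075-8021175, minus strand: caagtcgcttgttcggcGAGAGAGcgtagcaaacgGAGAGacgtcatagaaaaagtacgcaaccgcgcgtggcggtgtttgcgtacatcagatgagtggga
lin-15B, 954 bp upstream of the start, chrX:15725119-15725219, plus strand: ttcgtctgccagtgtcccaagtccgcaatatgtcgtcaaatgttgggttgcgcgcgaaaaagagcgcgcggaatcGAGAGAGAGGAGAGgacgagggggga
lin-38, 233 bp upstream of the start, chrII:13575642-13575742, plus strand: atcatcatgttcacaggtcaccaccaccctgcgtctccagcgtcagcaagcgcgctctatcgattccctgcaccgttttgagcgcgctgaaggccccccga
hpl-2, 3732 bp upstream of the start, chrIII:10759212-10759306, minus strand: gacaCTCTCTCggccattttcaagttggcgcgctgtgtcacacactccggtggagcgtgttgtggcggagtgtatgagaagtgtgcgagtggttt
mep-1, 207 bp upstream of the start, chrIV:11524385-11524485, plus strand: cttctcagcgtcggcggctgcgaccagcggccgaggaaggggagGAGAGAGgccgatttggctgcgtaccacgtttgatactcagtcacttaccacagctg
mep-1, 1822 bp upstream of the start, chrIV:11522770-11522870, plus strand: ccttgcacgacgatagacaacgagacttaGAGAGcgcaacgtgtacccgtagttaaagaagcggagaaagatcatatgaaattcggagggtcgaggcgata
let-418, 526 bp upstream of the start, chrV:5826257-5826357, plus strand: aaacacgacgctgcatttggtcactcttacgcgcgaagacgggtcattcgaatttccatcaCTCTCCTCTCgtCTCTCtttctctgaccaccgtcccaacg

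LIN-13 is the zinc-finger protein found in a complex with HPL-2 and LIN-61, and its gene had 2 peaks. The gene lies on chromosome III at 7700338 to 7709491, minus strand (WBGene00003002). The nearer peak (7710050 to 7710505) had its summit 787 bp upstream of the start, with a pooled signal of 162 at rank 715. It ranked 917 in replicate 1 (signal 65.5) and 588 in replicate 2 (signal 104), and the replicate summits lay 20 bp apart. The other peak (7710886 to 7711341) had its summit 1623 bp upstream, with a signal of 142 at rank 1026. It ranked 1339 in replicate 1 (signal 57.2) and 1104 in replicate 2 (signal 83.3). Both replicates thus had both peaks well inside their 4037 strongest regions. The gap between lin-13 and the divergent gene C03B8.3 is 2817 bp, and the farther summit was closer to the start of C03B8.3, 1195 bp upstream of it. No region of the pooled list had its summit inside lin-13, while replicate 1 had 2 weak ones in exons 1 and 2 (ranks 29730 and 24757).

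The gene of the THAP protein LIN-36 had a single listed region in each list, and it was a peak. The gene lies on chromosome III at 8016648 to 8020873, minus strand (WBGene00003021). The peak (8020897 to 8021352) had its summit 252 bp upstream, with a signal of 174 at rank 572. It ranked 954 in replicate 1 (signal 64.5) and 521 in replicate 2 (signal 106), with 7 bp between the replicate summits. Among the peaks that were nearest to the start of their own gene, this one ranked highest.

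The gene of the other THAP-type protein, lin-15B, had the weakest peak of the 6 genes. It lies on the X chromosome at 15726123 to 15732025, plus strand (WBGene00023497), next to the class A gene lin-15A. The peak (15724941 to 15725396) had its summit 954 bp upstream, with a signal of 102 at rank 2176. It ranked 1520 in replicate 1 (signal 53.9) and 2888 in replicate 2 (signal 51.2), and the replicate summits lay 69 bp apart, at 985 bp upstream in replicate 1 and 1054 bp upstream in replicate 2. The summit of replicate 2 therefore fell just outside the promoter window. A weaker region nearer the start, 211 bp upstream, ranked 15387 in the pooled list. Another, in intron 2, ranked 29063, and this was also the one pooled region in the window of lin-15A, where replicate 1 had 4 regions and replicate 2 had 0.

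The class A gene lin-38 had 1 peak and the second-highest number of listed regions. It lies on chromosome II at 13575925 to 13585523, plus strand (WBGene00013006). The peak (13575464 to 13575919) had its summit 233 bp upstream, with a signal of 137 at rank 1137. It ranked 2034 in replicate 1 (signal 47.4) and 868 in replicate 2 (signal 90.5), and the replicate summits lay 85 bp apart, the widest separation among the 8 peaks. The gene runs head to head with mrpl-37, a gene named for the large subunit of the mitochondrial ribosome, with 856 bp between them. The summit stood in the promoter windows of both, so it cannot be given to lin-38 alone. The other 6 pooled regions ranked between 9102 and 28361, 4 of them in introns of lin-38 (introns 3, 4, 6 and 8).

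The gene of the HP1 homologue HPL-2 had the strongest region of the 9, but not at its own start. The gene lies on chromosome III at 10752195 to 10755530, minus strand (WBGene00001996). The peak (10759148 to 10759349) had a signal of 323 at rank 24, with rank 12 in replicate 1 (signal 147) and rank 56 in replicate 2 (signal 177). The replicate summits lay 1 bp apart. The summit was 3732 bp upstream of hpl-2 and 45 bp upstream of the start of tasp-1, and it stood in the promoter windows of tasp-1 and K01G5.10. The nearest gene upstream, rnf-113, is on the same strand and ends 93 bp before hpl-2 starts. No other pooled region had its summit in the window. Near the start of hpl-2 itself, replicate 1 had a region 323 bp into the gene, in intron 1, at rank 20227 (signal 13.2), and replicate 2 had none within 2000 bp upstream or in the gene. With the window shortened to 2 kb upstream, hpl-2 had no peak.

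lin-61, the gene of the MBT protein, had no listed region in any of the 3 lists. It lies on chromosome I at 7248827 to 7251282, minus strand (WBGene00003041), and its start is 658 bp from that of bub-1. The nearest pooled summit was 22653 bp from the start at rank 20315, and the nearest IDR peak was 32592 bp away near pfd-6 at rank 3435. In replicate 1 the nearest summit was 18041 bp away, at rank 2797 and 120 bp upstream of hasp-1. The stretch around lin-61 without a pooled summit was 55245 bp long and held 17 protein-coding genes. It was 50615 bp long in replicate 1 and 55225 bp in replicate 2. Of the 29994 gaps between neighbouring pooled summits, 182 were longer, and the median was 1130 bp. A window with no region of any list was common, at 42.1% of all protein-coding genes and 28.7% of those within the length range of the 9. An empty window was thus not unusual. The count of longer gaps is by number, and does not give the share of genes or of the genome that lies in such gaps. Within 25 kb of its start lin-61 had 2 pooled regions, against a median of 11 and a 5th percentile of 0 over protein-coding genes.

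LIN-65 works with the H3K9 methyltransferase MET-2, and its gene had the most listed regions of the 9, 11 in the pooled list, without a peak. It lies on chromosome I at 1755329 to 1766400, plus strand (WBGene00022149). The strongest region (1750974 to 1751429) lay 4127 bp upstream, with a signal of 57.0 at rank 5254, below the IDR peaks. It was 147 bp upstream of mppa-1, a gene named for a mitochondrial processing peptidase subunit, and in the promoter windows of mppa-1 and Y71G12B.10. The replicates differed there. In replicate 1 it ranked 2130 (signal 46.0), whereas the overlapping region of replicate 2 ranked 29403 (signal 11.4) with its summit 330 bp away. With replicate 1 alone, where the 4037 strongest regions of its list stood in for IDR peaks, lin-65 counted as a gene with a peak. Of 961 pooled regions that ranked from 4038 to 8000 and were among the 4037 strongest of replicate 1, 22 (2.29%) ranked past 25000 in replicate 2 or were not listed there. Near the gene start of lin-65 a region 375 bp upstream ranked 22571 in the pooled list, 24810 in replicate 1 and 26690 in replicate 2. A stronger region in intron 4 lay 622 bp upstream of another annotated start of lin-65, and so also in its promoter window. That region ranked 12249 in the pooled list, 18052 in replicate 1 and 12828 in replicate 2. The strongest region of replicate 2 from 5 kb upstream to the gene's end lay in exon 8, at rank 11726 (signal 21.6).

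mep-1, the gene of the zinc-finger partner of LET-418, had 2 peaks upstream. It lies on chromosome IV at 11524642 to 11527954, plus strand (WBGene00003218). The nearer peak (11524207 to 11524662) had its summit 207 bp upstream, with a signal of 152 at rank 880. It ranked 1499 in replicate 1 (signal 54.2) and 659 in replicate 2 (signal 100), with 45 bp between the replicate summits. The windows of the noncoding RNA genes M04B2.11, M04B2.12 and M04B2.13 also held this summit. The farther peak (11522592 to 11523047) had its summit 1822 bp upstream, with a signal of 134 at rank 1187, rank 1064 in replicate 1 (signal 62.2) and rank 1396 in replicate 2 (signal 75.2). It lay in the 2427 bp between gfl-1 and mep-1, and the nearest protein-coding start was that of gfl-1, 1530 bp away. The replicates thus ordered the 2 peaks differently, the farther one ranking higher in replicate 1 and the nearer one in replicate 2. Inside the gene 2 weaker pooled regions lay in exons 4 and 6, at ranks 20853 and 9911.

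let-418, the Mi-2 ATPase gene that works with mep-1, had 4 pooled regions and no peak. It lies on chromosome V at 5826833 to 5832831, plus strand (WBGene00002637), with 13695 bp to the next protein-coding gene upstream. The strongest region (5826079 to 5826534) lay 526 bp upstream, with a signal of 43.0 at rank 8544. It ranked 15633 in replicate 1 (signal 15.5) and 5375 in replicate 2 (signal 33.7), outside the 4037 strongest of both. The others lay 211, 1272 and 2616 bp upstream at ranks 22450, 26718 and 29723. The nearest IDR peak was 19181 bp away, near F26F12.3. Within the pair, then, the partner gene had 2 peaks and the ATPase gene a weak upstream region.

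**Figure D2:**
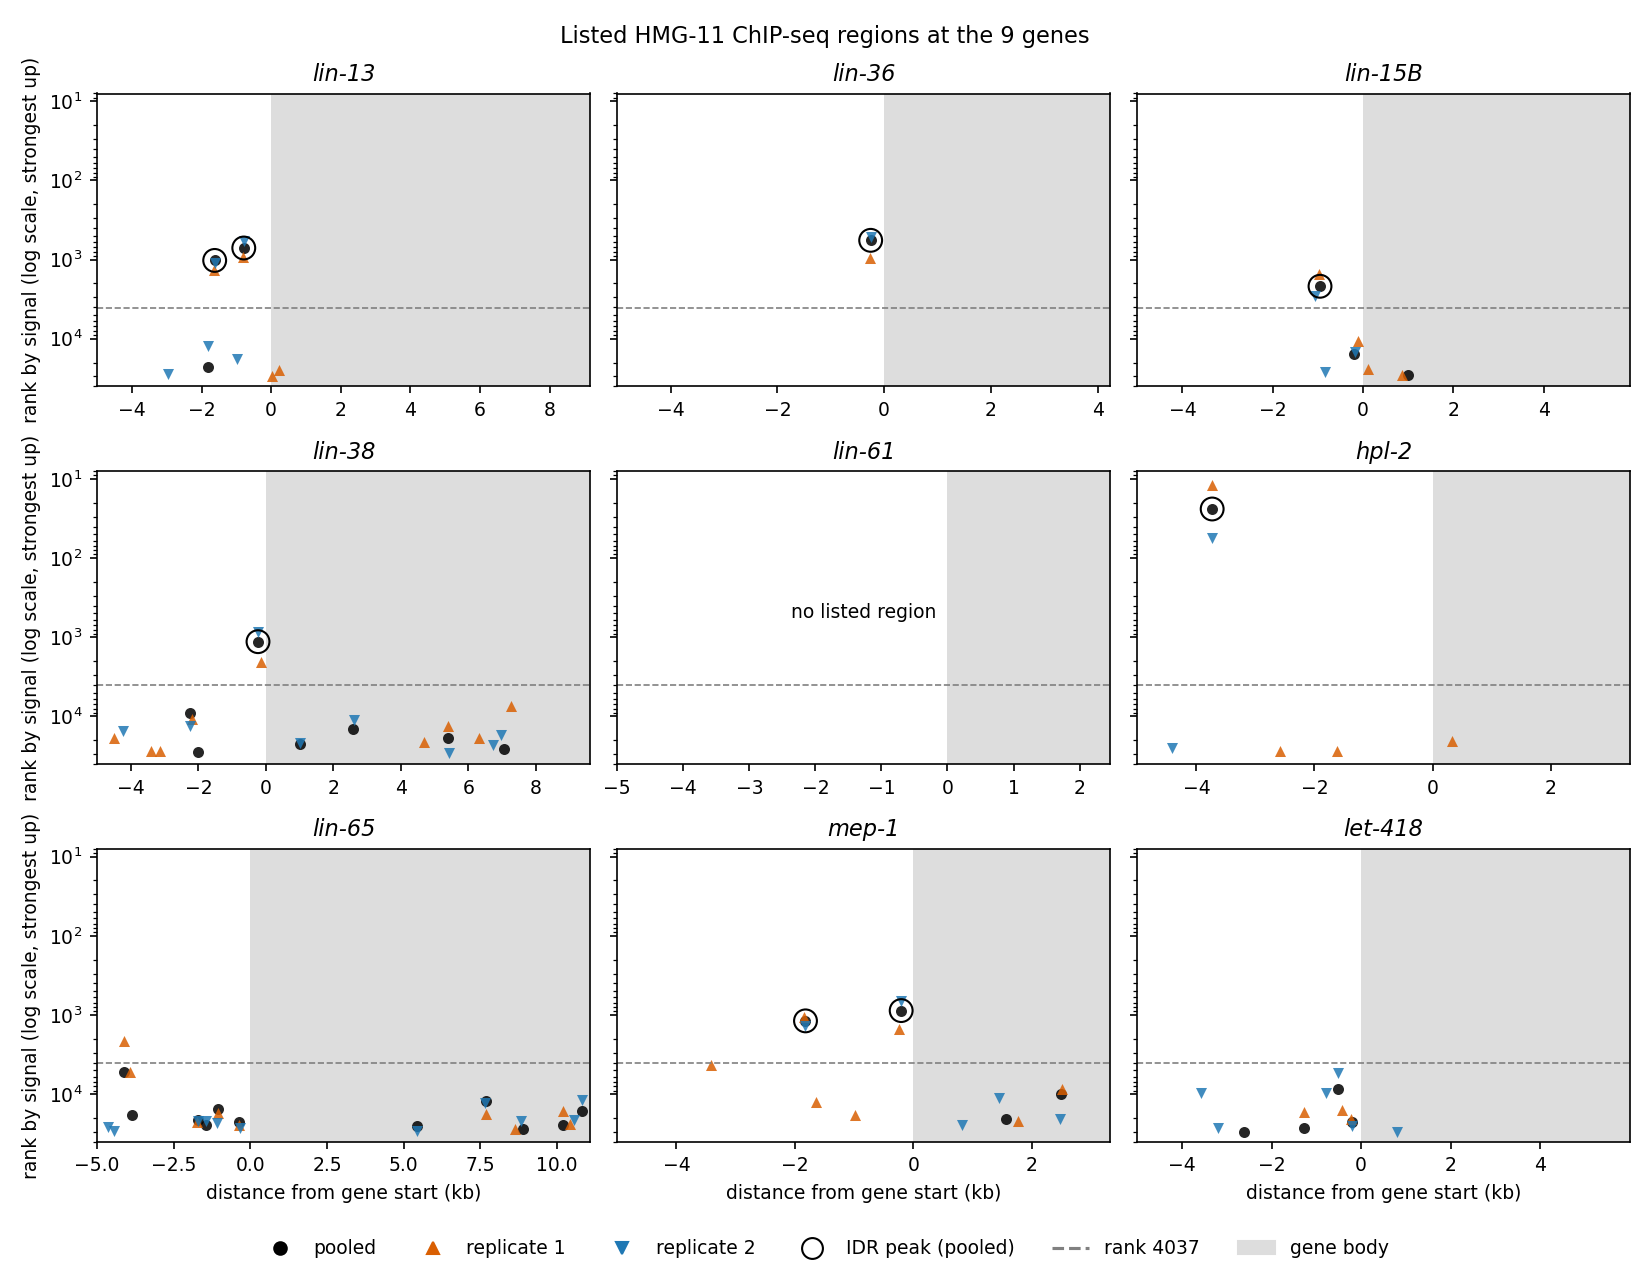
Position (horizontal axis, kb from the gene start, upstream to the left, grey for the gene) and rank (vertical axis, log scale, strongest at the top) of every listed region at the 9 genes. The circled IDR peaks of 6 genes all lie left of the start, that of hpl-2 at rank 24 and 3732 bp upstream, and lin-61 has no region in any list.

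The replicates placed the 8 peaks close together. The distance between the replicate summits ran from 1 bp at hpl-2 to 85 bp at lin-38, against a median of 31.0 bp and a 90th percentile of 117 bp over the IDR peaks listed in both replicates. The ratio of the weaker to the stronger rank was lowest at the farther lin-13 peak (1.21) and highest at hpl-2 (4.67, from ranks 12 and 56). Over all such peaks the median ratio was 1.59 and the 90th percentile 3.48. All 8 peaks were among the 4037 strongest regions of each replicate. The share of all IDR peaks of which this held is not given here, and the pooled ranks that define these peaks come from the same replicates. Replicate 2 gave the better rank at lin-36, lin-38, both lin-13 peaks and the nearer mep-1 peak, and replicate 1 gave it at lin-15B, hpl-2 and the farther mep-1 peak. In the order of strongest regions, the range between the replicate ranks overlapped for every pair of neighbours after hpl-2, so the order from lin-36 to let-418 is set no more firmly than that, and hpl-2 stood apart. For these ranges the strongest region was taken in each list by itself. At lin-65 and mep-1 it was a different region in each replicate.

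**Figure D3:**
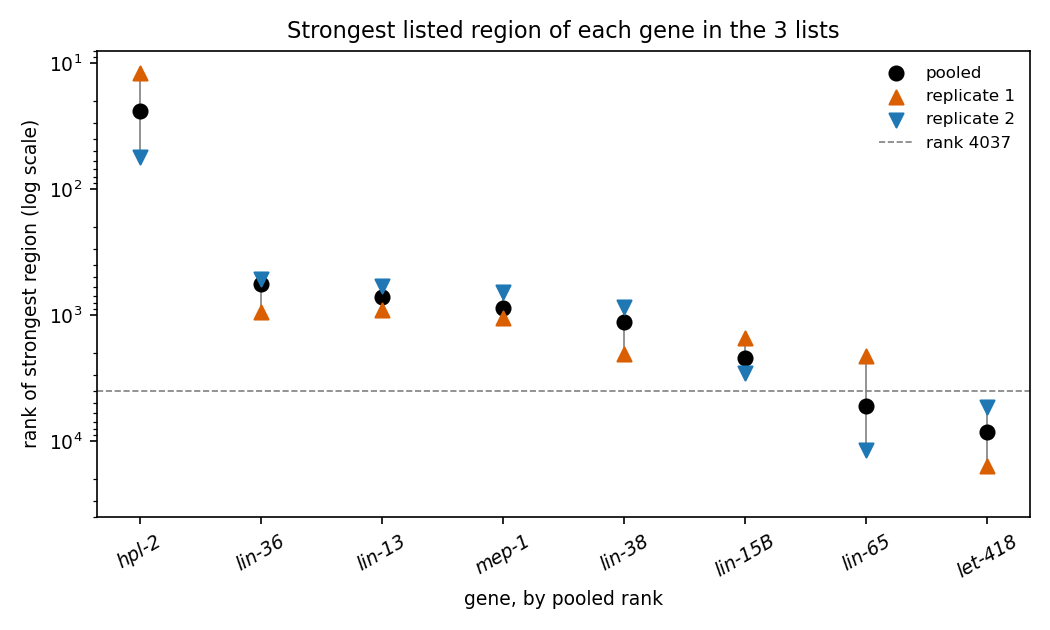
Rank of the strongest region in the window of 8 genes (vertical axis, log scale, strongest at the top) in the pooled list and in replicates 1 and 2, with a grey line joining the replicates and a dashed line at rank 4037. The 6 genes on the left stay above the dashed line in all 3 lists, and let-418 stays below it. lin-65 crosses it with ranks 2130 and 11726 in replicates 1 and 2. For lin-65 and mep-1 the line joins different regions, since the strongest region was not the same one in both replicates.

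With 50 bp on either side of the pooled summit, all 8 peaks had less A and T than the median IDR peak. In the summit base with 50 bp on either side, their A+T content had a median of 43.1%, from 38.6% at the nearer mep-1 peak to 51.5% at the farther one. All IDR peaks had a median of 52.5% (5th to 95th percentile 40.6% to 67.3%), and the other 25963 pooled regions 63.4% (48.5% to 78.2%). A+T content thus differed with rank. The 8 peaks ranked from 24 to 2176 in the pooled list and were not set beside peaks of like rank. At the pooled summits all 8 lay below the median of the IDR peaks, and 2 of them, the nearer mep-1 peak and that of lin-38 (39.6%), below its 5th percentile. This held for 7 of the 8 under each other setting. The farther mep-1 peak was above the median with 25 bp on either side (54.9%, median 51.0%), with 100 bp (57.2%, median 55.7%) and at the summit of replicate 1 (57.4%). At the summit of replicate 2, that of lin-15B was above the median of 52.5% (56.4%). The count below the 5th percentile was 0 with 25 bp, 2 with 100 bp, and 1 and 2 at the summits of replicates 1 and 2. The rest were lin-13 with 45.5% and 41.6%, lin-36 with 45.5%, lin-15B with 42.6% and hpl-2 with 43.6%. The 26 other pooled regions of the 9 genes had a median of 69.3%, from 47.5% to 82.2%. The strongest region of let-418 had the lowest value of these 26, and that of lin-65 had 72.3% with a run of 23 bases of A or T.

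**Figure D4:**
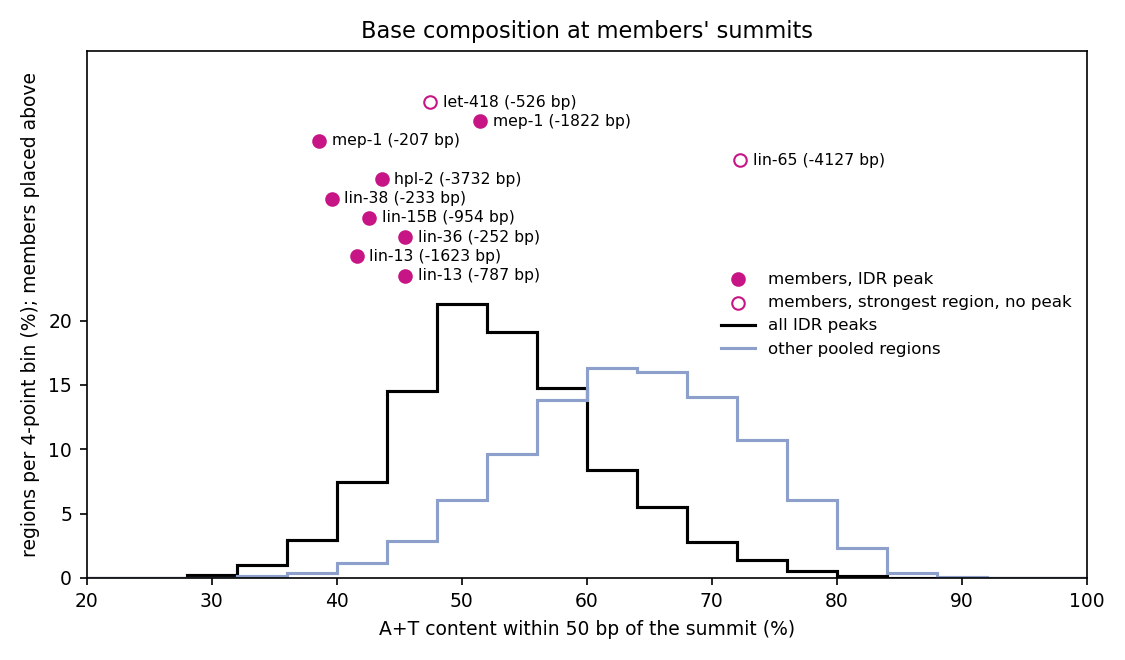
A+T content of the summit base with 50 bp on either side (horizontal axis), with outlines for the share of all IDR peaks and of all other pooled regions in bins of 4 percentage points. Filled points are the 8 peaks of the 9 genes, at 38.6% to 51.5%, and open points the strongest regions of let-418 (47.5%) and lin-65 (72.3%); their height only separates the labels.

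Short motifs were counted in the same bases. The motif GAGAG, read on both strands with CTCTC as its complement, was in 7 of the 8 peaks, all but that of lin-38. It was in 47.7% of all IDR peaks, in 17.7% of the other pooled regions and in 3 of the 26 other regions of the 9 genes, among them the strongest of let-418. Its longest stretches can be seen above in the lines of lin-15B and let-418. GCGC, which reads the same on both strands and was looked for after the sequences were seen, was in 7 of the 8, all but the nearer mep-1 peak. It was in 40.6% of all IDR peaks, 13.3% of the other pooled regions and 4 of the 26. AATT, also the same on both strands, was in 2 of the 8 peaks, 44.2% of IDR peaks and 73.5% of the others. AAAAA or TTTTT was in 2 of the 8, against 51.1% of IDR peaks and 73.7% of the others. TTTGAA or TTCAAA was in none of the 8, against 12.7% of IDR peaks and 27.4% of the others. Runs of at least 6 bases of A or T had a median of 0 in the 8 peaks, 1 in all IDR peaks and 3 in the other pooled regions. A match to such short letters is a description of the window and no binding site, and no test was made. These shares were not matched for rank either, and GAGAG and GCGC were both commoner in IDR peaks than in the weaker regions.

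The surroundings of the 9 genes differed. Within 25 kb on either side of the start there were 8 IDR peaks at lin-13, 6 at lin-15B, 5 at hpl-2, 4 at lin-36, 2 at mep-1, 1 each at lin-38 and let-418, and 0 at lin-61 and lin-65. The median over protein-coding genes was 2 (5th to 95th percentile 0 to 6). Pooled regions of any strength numbered 33 around hpl-2, 30 around lin-13, 27 around lin-38, 26 around lin-65, 20 each around mep-1 and let-418, 17 around lin-15B, 7 around lin-36 and 2 around lin-61, against a median of 11 (0 to 32). The few regions around lin-36 thus included 4 peaks, and the 26 around lin-65 included none.

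Genes of related complexes were counted in the same way. Of the 8 DREAM genes, which encode the class B complex of the retinoblastoma homologue LIN-35, 7 had a pooled region and 6 a peak, 5 of them in the promoter window, with a median rank of 1302 for the strongest region. For the 9 genes the counts were 8, 6 and 5 and the median 1008. Over all protein-coding genes the matching shares were 52.3%, 28.0% and 15.0%, and the median rank was 3578. The strongest in DREAM were lin-9 (rank 176, 113 bp upstream), lin-53 (rank 246, 256 bp upstream, nearest to nra-2), lin-54 (rank 374, 360 bp upstream, nearest to rpl-12) and lin-35 (rank 1302, 182 bp upstream), and lin-37 had no listed region in any of the 3 lists. Of the 4 class A genes, lin-38 included, all had a pooled region and 2 a peak. These were lin-38 (rank 1137) and lin-8 (rank 1136, 2051 bp upstream and nearest to lido-13). The others, lin-56 (rank 4775) and lin-15A (rank 29063), had none. Of the 4 class C genes, which encode parts of a Tip60-type acetyltransferase complex, 3 had a peak. These were epc-1 (rank 57, 4055 bp upstream and nearest to Y111B2A.12), ssl-1 (rank 1376, 554 bp upstream and nearest to hut-1) and mys-1 (rank 1439). The remaining gene, trr-1, had no pooled region, with 2 regions in replicate 1 and 1 in replicate 2. These counts were not tested against each other or against all protein-coding genes, and gene length was not matched.

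Partners of the 9 proteins in H3K9 methylation and in Mi-2 complexes were also covered. All 9 genes of this list had a pooled region and 6 had a peak, 4 in the promoter window, with a median rank of 2550. Over all protein-coding genes the shares were 52.3%, 28.0% and 15.0% and the median 3578. Gene length was not matched for this list either. The strongest was at lin-40, which encodes a subunit of the NuRD complex (rank 103, signal 259, 914 bp upstream), followed by arle-14 (rank 1435, 4412 bp upstream and nearest to abi-1), the histone deacetylase gene hda-1 (rank 2051, 978 bp upstream and nearest to ril-1) and dcp-66 (rank 2471, 1420 bp upstream). The 4 genes of another list, which synMuv proteins are known to repress (the growth factor gene lin-3 and the germline genes pgl-1, pgl-3 and glh-1), had no region in the window in any of the 3 lists, and nor did hmg-11 itself. A pooled region in the window was thus listed for 8 of 9 repressor genes and for 0 of these 4, beside 52.3% of protein-coding genes. Gene length was not matched here. No region of any list lay in the window of 42.1% of protein-coding genes, and of 28.7% of those within the length range of the 9. The 4 genes were picked by name, and the difference was not tested.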

How the data were processed

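ChIP-seq peak lists of 2 biological replicates were used, with the pooled list and the IDR list, all called on ce11. The labels' file notes list a further input file among the sources of each list; aligner and caller: not given in the sources used here. For each region the authors deposited a signal value, on an unstated scale, and a −log10 q-value. The deposited −log10 q-value reached its highest value, 3.86, in 3637 pooled regions, so the authors' signal was used for ranks. Lists on the ce10 build were not used. Read depth is unknown.

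Regions were joined to Ensembl release 115 genes (WBcel235) by summit, with coordinates counted from 1. Every region ended within its chromosome. Base composition and motifs came from the RefSeq sequence of the same assembly. Steps ran in Python 3.11.15 with numpy 2.4.6, pandas 2.3.3 and matplotlib 3.10.9. The assignment of summits to genes, tested on simulated data, recovered 200 of 200 planted windows. The summits were planted inside the windows, so the test checks the joining of positions and not which gene a summit belongs to. Samples formed 1 group, so members are described by rank, position and counts beside the same counts over all protein-coding genes, with no test. The genes named were the 9 members, genes sharing their summits or flanking them, and, in each related list, up to 4 genes with the strongest region and those with none; others are named where a count is small, after their values were seen. The members and lists were chosen with earlier results of these data known. Alternatives tried were each replicate alone (its 4037 strongest regions), the 2018 strongest peaks, other windows and nearest starts, other overlaps and other flanks at the summit. Added after the data were seen were the motif GCGC and a background of genes within the length range of the 9, not matched gene by gene.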

Additional observations from a re-analysis of the deposited data

How the results depend on the processing

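With 1 replicate left out, the 4037 strongest regions of the other replicate's list stood in for IDR peaks. The count of 6 genes with a peak in the window then ran from 6 to 7 (7, with lin-65 added, without replicate 2). It was 5 with the 2018 strongest peaks, 5 with 2 kb upstream and 5 with nearest starts. The share of all protein-coding genes, 28.0%, ran from 27.3% to 27.9% with 1 replicate left out and was 17.1%, 20.4% and 14.9% under those 3 settings. It was 35.7% among genes within the length range of the 9, which were not matched to them gene by gene. The promoter count of 5 ran from 4 (lin-15B lost without replicate 1) to 5, was 4 with the 2018 strongest peaks and 3 with 500 bp on either side (lin-13 and lin-15B lost), and was 5 with 2000 bp upstream and with nearest starts. The matching share of all genes, 15.0%, ran from 14.4% to 14.8% with 1 replicate left out and was 8.51% with the 2018 strongest peaks, 12.4% with 500 bp on either side, 19.1% with 2000 bp upstream and 11.3% with nearest starts. The strongest region of 8 genes was listed in both replicates, and of 7 (lin-65 lost) where a share of 0.5 of both regions had to overlap or the summits had to lie within 100 bp. The median rank of 1008 ran from 763.5 to 1292 with 1 replicate left out. The ranks of lin-36 (954) and lin-38 (2034) in replicate 1 and of hpl-2 (56) in replicate 2 were over 1.5 times the pooled rank, as were those of lin-65 (11726) in replicate 2 and let-418 (15633) in replicate 1. The region of lin-65 at rank 11726 was not its strongest pooled region, whose overlapping region in replicate 2 ranked 29403. The median A+T content of 43.1% ran from 44.0% to 47.0% at the summits of a single replicate, and was 45.1% with 25 bp and 49.2% with 100 bp on either side, where all IDR peaks had medians of 51.0% and 55.7%; 7 of the 8 peaks, not 8, were below the median of the IDR peaks under each of these 4 settings. Shorter or longer windows count fewer or more summits by construction; other causes were not tested. No paired analysis was possible because there was 1 group. Read depth is unknown, so genes without a listed region cannot be given a limit.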
